A study of Homo sapiens with 12 samples.

Results

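Integrins, cadherins and immunoglobulin-type adhesion receptors were followed in SJSA-1 cells, a human osteosarcoma line in permanent culture, as 33 genes taken by name: 14 integrin alpha subunits, 8 integrin beta subunits, 7 cadherins and 4 immunoglobulin-type receptors. They were found among the 59248 rows of the gene table by Ensembl identifier, and all 33 matched 1 row. The groups compared were 6 libraries from cells stably transduced with a lentivirus for a scramble shRNA (shNC) and 6 libraries from cells with stable expression of RUNX2 shRNA-1 (sh1). Cells of both groups carried the same vector, with EGFP and puromycin resistance, and were selected with puromycin. Neither an untransduced line nor a second RUNX2 shRNA enters the comparison, and whether the 6 libraries of each group are from separate cultures is not stated. The p-values therefore speak only to the scatter among these libraries, part of which may be technical.

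Integrins are heterodimers of an alpha and a beta subunit that span the plasma membrane and tie the extracellular matrix to the actin cytoskeleton. The alpha subunit largely sets the ligand: some alpha chains bind collagens, others laminins, and others proteins with an Arg-Gly-Asp (RGD) motif such as fibronectin and vitronectin, while the beta1 chain serves as partner to most of them and the alphaV chain also pairs with beta3, beta5, beta6 and beta8. Classical cadherins join neighbouring cells through like-with-like contacts and bind catenins inside the cell. RUNX2, the transcription factor targeted here, directs osteoblast differentiation, and bone cells attach to matrix through collagen-binding and RGD-binding integrins, among others.

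Total gene counts ran from 15328312 to 19992974 in shNC and from 11239638 to 16346022 in sh1. The lowest was sh1 replicate 3, which also had the fewest genes with a count (27392, against 28612 to 28873 in the other sh1 libraries). RUNX2 was at 4.34 to 5.68 FPKM (fragments scaled to gene length and library total) in shNC and at 2.65 to 3.36 FPKM in sh1. The groups did not overlap, and RUNX2 fell by 0.69 on the log2 scale (SE, the standard error, 0.076), for which the quasi-likelihood test of edgeR gave an adjusted p = 4.6e-06. Fold changes are sh1 over shNC throughout. Mesenchymal and bone markers, RUNX2 among them, summed to 595 to 696 FPKM in shNC and 775 to 924 FPKM in sh1. These markers did not move alike. By the same edgeR test SPARC (mean 297 FPKM in shNC and 474 FPKM in sh1, adjusted p = 5.6e-07) and PDGFRB (adjusted p = 0.00049) were higher in sh1. VIM averaged 266 and 247 FPKM (adjusted p = 0.11) and FN1 71.5 and 103 FPKM (adjusted p = 0.068). Over all 12 libraries SPARC averaged 386 FPKM and VIM 256 FPKM, and 5 of 7 markers reached 1 FPKM. The early osteoblast enzyme ALPL had 4 counts and the surface marker THY1 45 counts in all 12 libraries together. Of 34 markers in 6 lists, those of leukocytes summed to 0.788 to 1.16 FPKM in shNC and 1.79 to 2.29 FPKM in sh1, mostly from CSF1R (1.32 FPKM on average), while PTPRC, which defines leukocytes, had 6 counts in all. Markers of epithelium (most abundant ESRP1, 0.128 FPKM) summed to at most 0.313 FPKM and those of endothelium (PECAM1, 0.310 FPKM) to at most 0.986 FPKM in any library. Markers of skeletal muscle summed to 0 to 0.132 FPKM in shNC and to 0.221 to 0.903 FPKM in sh1, led by DES.

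Of the 33 adhesion genes, 24 had enough counts to be tested (edgeR's filterByExpr). At an adjusted p under 0.05, 13 rose and 5 fell in sh1 and 6 were not called. Over all 16489 genes tested, 26.1% were called, 12.8% as higher and 13.3% as lower. The median log2 fold change of the 24 was 0.18 and the median of its size 0.38, against -0.0035 and 0.16 over all genes tested. In 10 of the 24 the sh1 and shNC values did not overlap, 7 with sh1 above and 3 with sh1 below. Over all genes tested, 11.9% show no overlap, 6.28% with sh1 above and 5.62% with sh1 below. The 33 genes were chosen with earlier results of these data known, so these counts and medians are descriptions. Changes were mostly below 2-fold. Of the 24 genes tested, 18 were called. ITGA11 and ITGAM, 2 of the 24, were called with a log2 fold change of at least 1, against 2.09% of all genes tested. In bulk RNA of this kind, fewer cells that express a gene and less RNA per cell cannot be told apart.

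**Figure D1:**
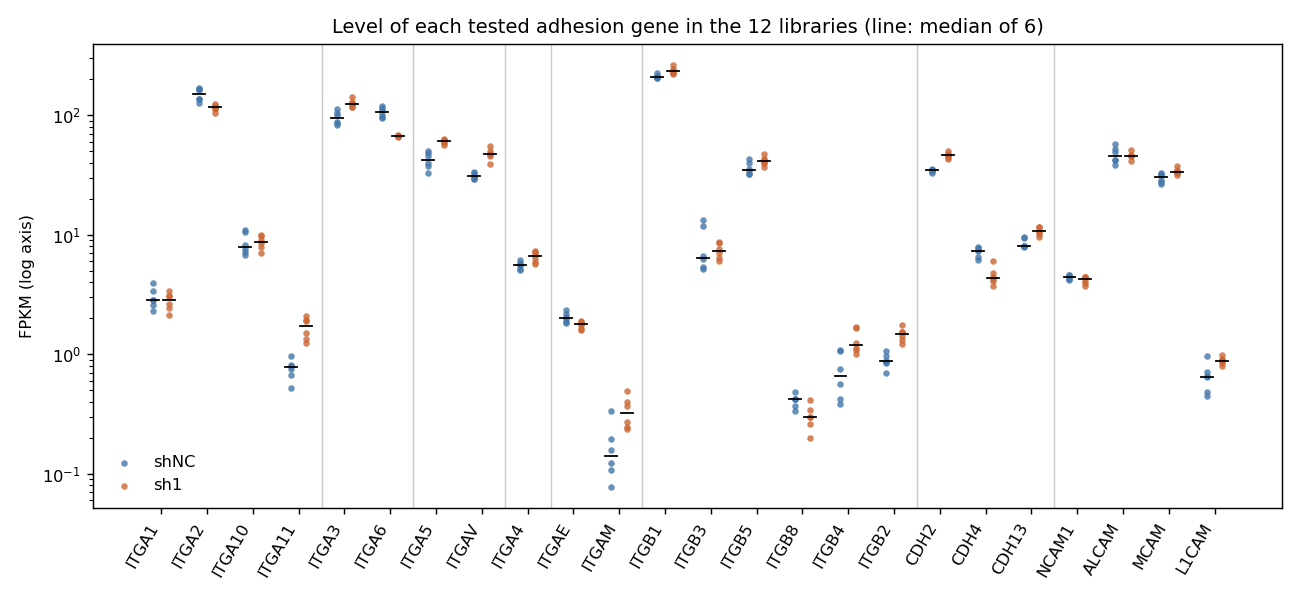
FPKM on a log axis of each of the 24 tested adhesion genes in the 12 libraries, with points for libraries, a black line for the median of 6, and grey lines between ligand or family classes. The levels span from under 1 FPKM (ITGAM, ITGB8) to over 200 FPKM (ITGB1), and the sh1 points lie below all shNC points for ITGA2, ITGA6 and CDH4.

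The sequences before the start sites of 4 integrin alpha genes are shown because these genes are abundant and moved apart: ITGA6 and ITGA2 fell, ITGAV and ITGA5 rose. They are RefSeq promoter windows of GRCh38.p14, each holding 250 bases before and 50 bases from the listed start on, written 5′ to 3′ on the strand of the gene. Capitals mark matches to the RUNX core TGTGGT, to its variant TGCGGT or to the AP-1 motif TGANTCA. Both strands were searched, so a match on the other strand appears as its reverse complement, and none of the matches shown overlaps another.
ITGA6 (chr2:172427086-172427385, plus strand): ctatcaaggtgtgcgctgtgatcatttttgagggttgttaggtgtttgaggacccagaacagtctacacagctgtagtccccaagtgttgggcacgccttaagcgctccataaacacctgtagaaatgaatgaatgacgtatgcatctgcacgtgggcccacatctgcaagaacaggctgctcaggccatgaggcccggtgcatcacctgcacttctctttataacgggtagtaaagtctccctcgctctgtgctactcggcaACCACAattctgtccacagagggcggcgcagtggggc
ITGA2 (chr5:52989102-52989401, plus strand): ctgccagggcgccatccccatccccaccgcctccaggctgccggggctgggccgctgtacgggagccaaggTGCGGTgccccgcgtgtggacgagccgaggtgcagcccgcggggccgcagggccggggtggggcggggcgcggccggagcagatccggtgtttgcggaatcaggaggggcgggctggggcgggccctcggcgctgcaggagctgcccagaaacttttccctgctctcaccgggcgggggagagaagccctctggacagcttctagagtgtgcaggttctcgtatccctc
ITGAV (chr2:186589806-186590105, plus strand): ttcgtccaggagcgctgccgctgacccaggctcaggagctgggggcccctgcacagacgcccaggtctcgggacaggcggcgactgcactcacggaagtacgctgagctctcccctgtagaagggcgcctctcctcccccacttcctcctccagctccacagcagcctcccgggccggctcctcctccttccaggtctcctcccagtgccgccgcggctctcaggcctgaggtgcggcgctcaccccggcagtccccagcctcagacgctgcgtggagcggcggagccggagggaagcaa
ITGA5 (chr12:54419217-54419516, minus strand): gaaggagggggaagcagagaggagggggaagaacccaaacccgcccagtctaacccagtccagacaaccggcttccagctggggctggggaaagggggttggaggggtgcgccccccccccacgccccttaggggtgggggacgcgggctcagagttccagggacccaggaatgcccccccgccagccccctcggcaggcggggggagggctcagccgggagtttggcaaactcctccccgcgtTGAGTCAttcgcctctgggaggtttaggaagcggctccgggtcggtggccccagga
In ITGA6 the RUNX core lay 13 bases after the listed start, on the strand opposite to the gene. Another ITGA6 start is listed, from which the same match lay at position -237. In ITGA2 the variant lay at position -179 from the start, and in ITGA5 an AP-1 match lay at position -6. The ITGAV window held none of these letters. Of the 33 genes, 21 were listed, with 29 windows. ITGA3, also abundant and called higher, was not listed. The RUNX core stood in windows of ITGA6, called lower, and ITGAM, called higher. That is 2 of 21 genes, against 15.6% of all 27303 genes listed. The variant stood in windows of ITGA2, called lower, and ITGB5, not called. The AP-1 motif stood in windows of ITGA5 and CDH2, both called higher. Each is again 2 of 21 genes, against 8.67% and 9.37% of all genes. Windows of ITGAE, ITGB8 and CDH4, also called lower, held neither the RUNX core nor the variant. A match describes letters in a window and is not evidence of binding.

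Laminin-binding alpha subunits moved in opposite directions. ITGA6 (ENSG00000091409, chromosome 2, 172427354 to 172506459), the alpha6 chain that pairs with beta1 or beta4, was at 93.7, 106 and 118 FPKM (lowest, median and highest) in shNC and at 65.2, 67.1 and 68.7 FPKM in sh1. Every sh1 library lay below every shNC library, and the sh1 libraries were close to each other. ITGA6 fell by 0.68 on the log2 scale (SE 0.062, adjusted p = 5.5e-07), with the smallest p-value of the 24 genes. ITGA3 (ENSG00000005884, chromosome 17, 50055968 to 50090481), the alpha3 chain, which binds the same family of laminins with beta1, was at 83.2, 93.7 and 112 FPKM in shNC and at 116, 124 and 142 FPKM in sh1. All sh1 libraries were above all shNC libraries. ITGA3 rose by 0.38 on the log2 scale (SE 0.070, adjusted p = 0.00064). ITGA7, the alpha7 chain of muscle, had 54 counts in all 12 libraries and was not tested. The laminin-binding sum of ITGA3, ITGA6 and ITGA7 was 201 ± 6.52 FPKM in shNC and 192 ± 9.16 FPKM in sh1 (SD, n = 6 each), with overlapping groups. Within that sum ITGA6 made up 45.5% to 58.7% in shNC and 31.8% to 36.6% in sh1, so the ratio of ITGA6 to ITGA3 went from 1.13 ± 0.230 to 0.537 ± 0.0427 (SD, n = 6 each). Sums and shares over the named genes are given as descriptions, without a test.

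**Figure D2:**
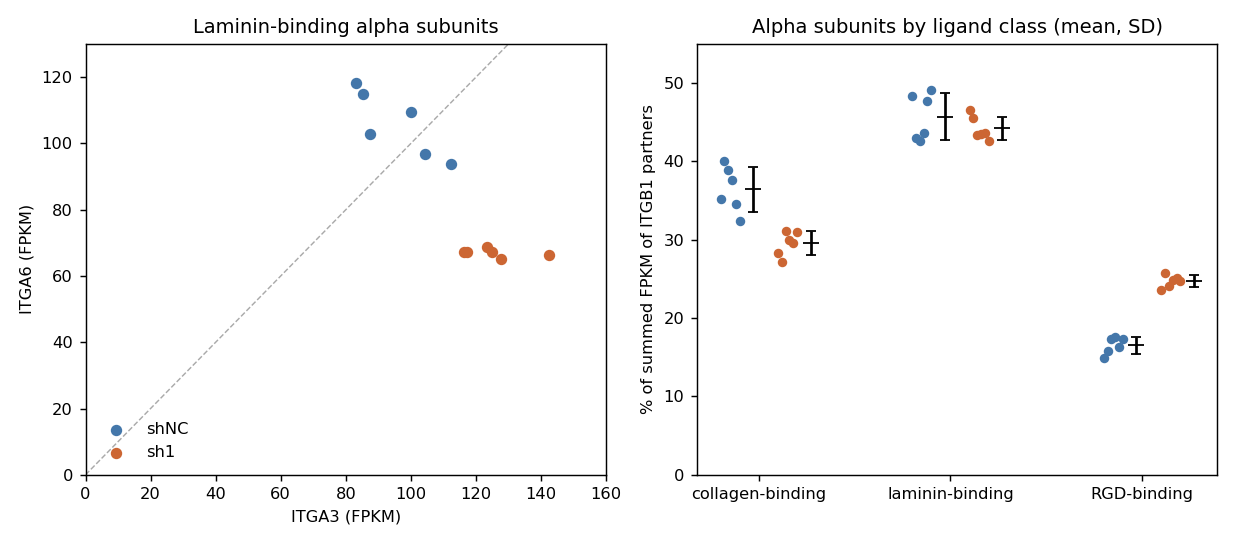
Left, ITGA6 against ITGA3 in FPKM for each library, where the dashed line marks equal levels; right, the share of collagen-, laminin- and RGD-binding alpha subunits in the summed FPKM of the 12 alpha subunits that pair with ITGB1, in percent, with points for libraries and bars for mean and SD. The sh1 libraries lie below the dashed line at 65.2 to 68.7 FPKM of ITGA6, and the RGD-binding share is 23.7% to 25.8% in sh1 against 14.9% to 17.6% in shNC.

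RGD-binding alpha subunits were higher in sh1. ITGAV (ENSG00000138448, chromosome 2, 186590010 to 186680901), the alphaV chain of the vitronectin receptors, was at 29.0, 30.8 and 33.4 FPKM in shNC and at 38.9, 47.2 and 55.5 FPKM in sh1. The groups did not overlap, and the sh1 libraries were the more scattered. ITGAV rose by 0.60 on the log2 scale (SE 0.067, adjusted p = 5.7e-06). ITGA5 (ENSG00000161638, chromosome 12, 54395261 to 54419266), the alpha5 chain of the classical fibronectin receptor, was at 32.6, 42.3 and 50.5 FPKM in shNC and at 55.9, 60.8 and 62.7 FPKM in sh1. Here the shNC libraries were the more scattered, and still none reached the lowest sh1 value. ITGA5 rose by 0.49 on the log2 scale (SE 0.079, adjusted p = 0.00018). ITGA8, another RGD-binding chain, had 2 counts in all libraries. The sum of the 3 genes was 73.2 ± 8.12 FPKM in shNC and 107 ± 3.77 FPKM in sh1 (SD, n = 6 each), and the groups did not overlap.

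Collagen-binding alpha subunits were dominated by ITGA2 and did not move together. ITGA2 (ENSG00000164171, chromosome 5, 52989340 to 53094779), the alpha2 chain of a collagen receptor also found on platelets, was at 127, 149 and 168 FPKM in shNC and at 104, 116 and 124 FPKM in sh1. All sh1 libraries lay below all shNC libraries, with the edges of the groups close together. ITGA2 fell by 0.39 on the log2 scale (SE 0.068, adjusted p = 0.00043). ITGA11 (ENSG00000137809, chromosome 15, 68296532 to 68432163), the collagen receptor chain of fibroblasts and other mesenchymal cells, was at 0.520, 0.778 and 0.971 FPKM in shNC and at 1.25, 1.71 and 2.09 FPKM in sh1. Its groups did not overlap, and it rose by 1.14 on the log2 scale (SE 0.14, adjusted p = 1.5e-05), the largest change of the 24 genes, at a level far below that of ITGA2. On the log2(FPKM + 1) scale, which understates changes of low genes, the difference was 0.60. ITGA1, the alpha1 chain, was at 2.28, 2.83 and 3.94 FPKM in shNC and 2.11, 2.84 and 3.40 FPKM in sh1, and ITGA10, the alpha10 chain of cartilage, at 6.79, 7.86 and 10.9 FPKM and 7.05, 8.75 and 9.97 FPKM. Neither was called. The log2 fold change of ITGA1 was -0.11 with a 95% interval from -0.37 to 0.14, and that of ITGA10 was 0.020 with an interval from -0.21 to 0.25. The collagen-binding sum was 161 ± 20.3 FPKM in shNC and 129 ± 8.19 FPKM in sh1 (SD, n = 6 each), of which ITGA2 held 88.2% or more in every library.

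Across all 12 alpha subunits that can pair with beta1, the summed level was close in the groups, 442 ± 25.6 FPKM in shNC and 435 ± 13.7 FPKM in sh1 (SD, n = 6 each), and its composition differed. Collagen-binding chains made up 36.5% ± 2.88 in shNC and 29.6% ± 1.55 in sh1, laminin-binding chains 45.7% ± 2.98 and 44.2% ± 1.52, and RGD-binding chains 16.5% ± 1.06 and 24.7% ± 0.771 (SD, n = 6 each). The collagen-binding and RGD-binding shares did not overlap between the groups and the laminin-binding shares did. ITGAV is counted here in full although it pairs with other beta chains too.

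ITGB1 (ENSG00000150093, chromosome 10, 32887273 to 33005792), the common beta1 chain, was the most abundant of the 33 genes, at 203, 209 and 224 FPKM in shNC and 223, 232 and 262 FPKM in sh1. The groups met at their edges. ITGB1 rose by 0.15 on the log2 scale (SE 0.048, adjusted p = 0.030), a call that was lost, among other settings, without shNC replicate 6 (adjusted p = 0.063) or sh1 replicate 6 (adjusted p = 0.052) and with no filter on low counts (adjusted p = 0.050). ITGA4, the alpha4 chain that binds VCAM1 and a fibronectin splice segment, went from 5.02, 5.53 and 6.18 FPKM to 5.70, 6.62 and 7.28 FPKM. It was called higher (0.22 on the log2 scale, SE 0.074, adjusted p = 0.035), but, among other settings, not without shNC replicate 2 or 6 or sh1 replicate 4, 5 or 6 (adjusted p up to 0.080), nor without shNC replicates 3 and 4 together (adjusted p = 0.065). Its exons share 2813 base pairs with CERKL on the other strand, which this unstranded library kit cannot separate. ITGA9, the closest relative of alpha4, had 49 counts and was not tested.

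The beta chains that pair with alphaV differed among themselves. ITGB5, the beta5 chain of a vitronectin receptor, was the most abundant of them at 31.9, 34.6 and 42.7 FPKM in shNC and 36.9, 41.2 and 47.1 FPKM in sh1. The groups overlapped, and ITGB5 was just short of a call with a log2 fold change of 0.19 (95% interval from 0.043 to 0.34, adjusted p = 0.054). It was called under 11 of 23 alternatives, among them without shNC replicate 3 (adjusted p = 0.027), shNC replicate 4 (0.0087), sh1 replicate 3 (0.020) or sh1 replicate 4 (0.050), and with DESeq2 (adjusted p = 0.048). ITGB3, the beta3 chain found on osteoclasts and platelets, was at 5.15, 6.43 and 13.4 FPKM in shNC and at 6.02, 7.27 and 8.63 FPKM in sh1. In shNC the replicates 3 and 4 stood at 13.4 and 11.7 FPKM and the other 4 libraries at 5.15 to 6.65 FPKM. Exons of ITGB3 share 2266 base pairs with another protein-coding gene on the same strand, which had 0 counts. ITGB3 was not called with all libraries (log2 fold change -0.15, 95% interval from -0.57 to 0.27, adjusted p = 0.62). Without shNC replicate 3 the value was 0.066 (adjusted p = 0.81), and with shNC replicates 3 and 4 both left out, an alternative added after the data had been seen, it was 0.31 (adjusted p = 0.030). ITGB8, a chain of a receptor that activates latent TGF-beta, was at 0.336, 0.422 and 0.479 FPKM in shNC and at 0.199, 0.297 and 0.413 FPKM in sh1. It was called lower (-0.47, SE 0.14, adjusted p = 0.023), with overlapping groups, and the call was lost without shNC replicate 3 or sh1 replicate 1 or 2 (adjusted p = 0.057 to 0.059) and with limma on either FPKM scale. ITGB6, an epithelial partner of alphaV, had 75 counts in all and was not tested.

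**Figure D3:**
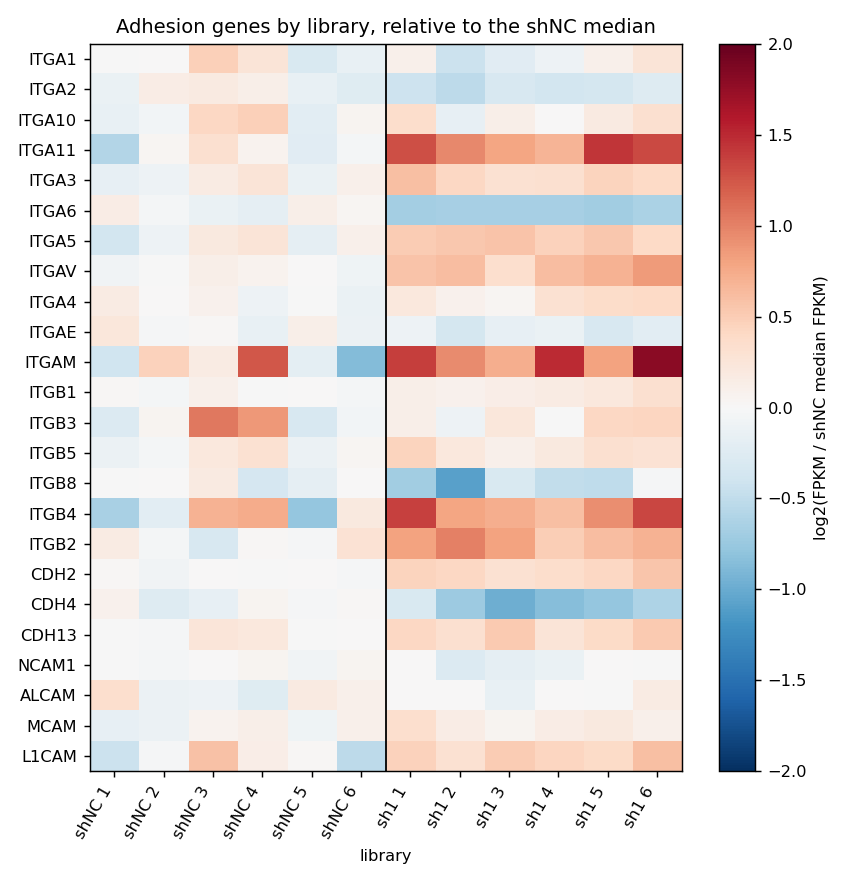
Each tested adhesion gene (rows) in each library (columns) as log2 of its FPKM over the median FPKM of the 6 shNC libraries, with red for higher and blue for lower values. ITGB3 and ITGB4 are raised in shNC replicates 3 and 4, and ITGA6, ITGA2 and CDH4 are lower across the 6 sh1 libraries.

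The shNC libraries were not alike for these genes. In 11 of the 24 tested genes the replicates 3 and 4 held the 2 highest values among the 6 shNC libraries, and in 1 (ITGA6) the 2 lowest. Over all genes tested the same was seen for 17.1% and 11.5%. The 11 genes were ITGA1, ITGA3, ITGA5, ITGA10, ITGA11, ITGAV, ITGB3, ITGB4, ITGB5, CDH13 and L1CAM. With both libraries left out, 14 of the 24 adhesion genes were called higher and 5 lower, and without sh1 replicate 3, the library of low depth, 13 and 4.

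Integrin subunits with restricted use were present at low levels. ITGB4, the beta4 chain that pairs with alpha6 in epithelial hemidesmosomes, went from 0.382, 0.654 and 1.09 FPKM in shNC to 0.995, 1.19 and 1.69 FPKM in sh1. ITGB4 was called higher (0.86 on the log2 scale, SE 0.22, adjusted p = 0.0083), and shNC replicates 3 and 4 reached the range of sh1. ITGB2, the beta2 chain of leukocyte integrins, rose from 0.699, 0.869 and 1.07 FPKM to 1.22, 1.47 and 1.74 FPKM without overlap of the groups (log2 fold change 0.70, SE 0.11, adjusted p = 0.00019). ITGAM, its alpha partner on myeloid cells, had at most 41 counts in a library and went from 0.0775, 0.141 and 0.333 FPKM to 0.235, 0.320 and 0.491 FPKM (log2 fold change 1.02, SE 0.28, adjusted p = 0.013). Among the leukocyte genes measured beside them, CSF1R was called higher (1.08, adjusted p = 2.6e-06). CD53 had 36 counts in all and a mean of 0.0373 FPKM in shNC and 0.134 FPKM in sh1, with no count in sh1 replicate 3, and was not tested. PTPRC had 6 counts, CD14 20 counts and CD3E 3 counts in all libraries. All libraries are from the SJSA-1 line, selected until all cells carried EGFP. Which of these cells hold the ITGB2 and ITGAM RNA was not tested. ITGAE, a chain of lymphocytes in epithelia, was lower by 0.25 on the log2 scale (-0.25, adjusted p = 0.043) at 1.83 to 2.36 FPKM in shNC and 1.58 to 1.89 FPKM in sh1. That call was lost in 14 of 23 alternatives, among them leaving out any of shNC replicates 1, 2, 3 and 5 or sh1 replicates 2 to 6 (adjusted p up to 0.11). Its exons overlap those of HASPIN on the opposite strand by 427 base pairs. ITGB7, the partner of ITGAE, had 11 counts in all, and 1881 base pairs of its exons overlap ZNF740 on the opposite strand. On the log2(FPKM + 1) scale the differences of the low genes were smaller than in the count fit, at 0.20 for ITGAM, 0.38 for ITGB2, 0.44 for ITGB4, 0.20 for L1CAM, -0.15 for ITGAE and -0.12 for ITGB8, of which ITGAE and ITGB8 were then not called.

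**Figure D4:**
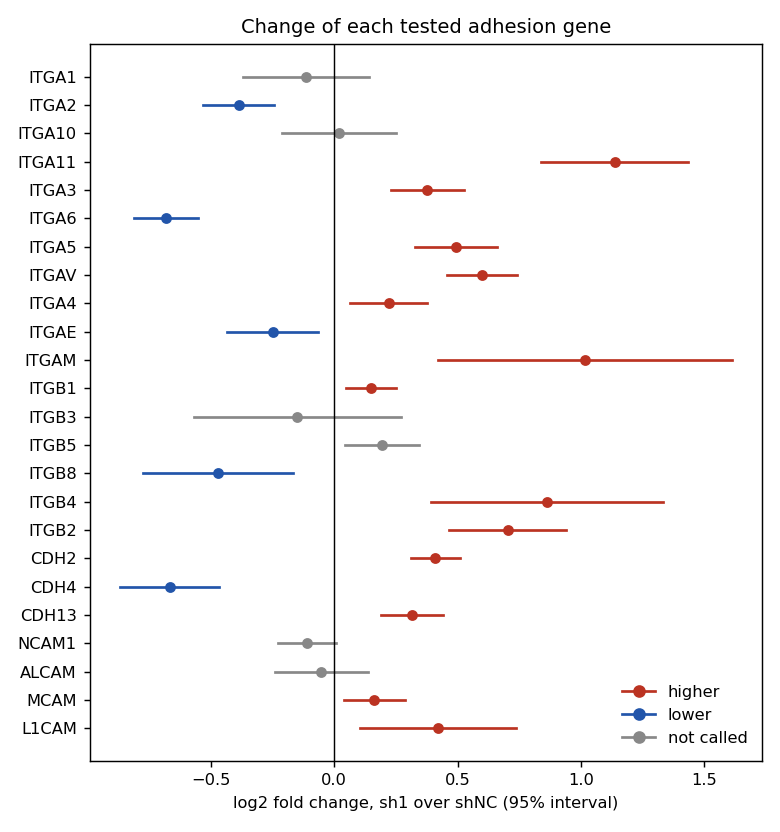
Change in sh1 relative to shNC (log2) for the 24 tested adhesion genes, each with its 95% interval, in red for genes called higher, blue for genes called lower and grey for genes not called at an adjusted p under 0.05. The values run from -0.68 for ITGA6 to 1.14 for ITGA11.

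Among cadherins, N-cadherin rose and R-cadherin fell. CDH2 (ENSG00000170558, chromosome 18, 27932879 to 28177946), N-cadherin, the main classical cadherin of mesenchymal and neural cells, was at 32.8, 34.6 and 35.2 FPKM in shNC and at 42.8, 46.1 and 50.6 FPKM in sh1. The groups were well apart, and CDH2 rose by 0.41 on the log2 scale (SE 0.048, adjusted p = 7.5e-06). CDH4 (ENSG00000179242, chromosome 20, 61252261 to 61940617), R-cadherin, its close relative, was at 6.18, 7.36 and 7.81 FPKM in shNC and at 3.75, 4.37 and 5.96 FPKM in sh1. The highest sh1 value was that of replicate 1, just under the lowest shNC value. CDH4 fell by 0.67 on the log2 scale (SE 0.096, adjusted p = 6.4e-05). CDH13, T-cadherin, which is held in the membrane by a lipid anchor and lacks a cytoplasmic tail, went from 7.94, 8.04 and 9.49 FPKM to 9.60, 10.6 and 11.6 FPKM with no overlap. CDH13 rose by 0.32 on the log2 scale (SE 0.059, adjusted p = 0.00074). Its exons share 2354 base pairs with CDH13-AS2 on the opposite strand, which had 125 counts in all. CDH2 held 82.6% ± 1.13 of the summed FPKM of the 6 classical cadherins in shNC and 90.8% ± 1.20 in sh1 (SD, n = 6 each).

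The other classical cadherins among the listed genes were at or near 0. CDH1, E-cadherin of epithelia, had 0 counts in all 12 libraries, where the 3 counts that a count of 0 allows correspond to 0.150 to 0.267 CPM in a single library. CDH3, P-cadherin, had 16 counts in all, CDH5, VE-cadherin of endothelium, 112 counts and CDH6, K-cadherin, 5 counts. These 4 genes did not pass the count filter and were not tested in the main fit, which therefore gives no result on differences in them. The limit given for a count of 0 covers counting error only.

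Of the 4 immunoglobulin-type receptors, 2 were called higher and 2 were not called. MCAM, a receptor of pericytes and melanoma cells, was at 26.8, 30.1 and 32.7 FPKM in shNC and 31.2, 33.4 and 37.9 FPKM in sh1. It was called higher (log2 fold change 0.16, SE 0.058, adjusted p = 0.046), but, among other settings, not when any of shNC replicates 1, 2 and 5 or sh1 replicates 1, 2, 4 and 5 was left out (adjusted p = 0.052 to 0.092). MCAM shares 509 base pairs of exon with CBL on the opposite strand. L1CAM, a neural receptor that is also made by tumour cells, was at 0.451, 0.647 and 0.970 FPKM in shNC and 0.797, 0.884 and 0.983 FPKM in sh1. Its call (0.42, adjusted p = 0.047) was lost without 9 of the 12 libraries, namely shNC replicates 1, 2, 5 and 6 and sh1 replicates 1, 3, 4, 5 and 6 (adjusted p = 0.061 to 0.099). With shNC replicates 3 and 4 both left out, its log2 fold change was 0.65 (adjusted p = 0.0015). ALCAM, a receptor of activated leukocytes and mesenchymal progenitors, was at 38.4, 45.6 and 57.6 FPKM in shNC and 41.0, 45.7 and 51.1 FPKM in sh1. Its log2 fold change was -0.051 (95% interval from -0.24 to 0.14). NCAM1, which binds its own kind on neural and muscle cells, was at 4.21, 4.43 and 4.62 FPKM in shNC and 3.68, 4.23 and 4.44 FPKM in sh1 (-0.11, 95% interval from -0.23 to 0.0097). Neither of these was called. Of neural markers measured beside these genes, GFAP was called higher (0.88, adjusted p = 0.0033), at 0.0524 to 0.124 FPKM in shNC and 0.126 to 0.179 FPKM in sh1. SNAP25 (0.38, adjusted p = 0.17) and SYP (-0.22, adjusted p = 0.54) were not called, and SOX10 had 23 counts in all. Which cells of the SJSA-1 line hold the L1CAM, NCAM1 and CDH2 RNA was not tested.

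Genes that act with these receptors were counted in 9 lists of 129 genes, of which 95 were tested, 38 were called higher and 9 lower (49.5% called, against 26.1% of all genes tested). Their median log2 fold change was 0.16, against -0.0035 over all genes tested, and the medians of the lists are given with each. The lists were chosen with earlier results of these data known, so shares and medians are descriptions. Of 26 tested integrin adaptors, which link beta tails to actin or signal from them, 10 were higher, 3 lower and 13 not called (median 0.17). The tensins TNS1 (log2 fold change 0.81, adjusted p = 1.5e-06) and TNS3 (0.63, adjusted p = 1.5e-06), the actin crosslinker FLNA (0.51, adjusted p = 2.9e-05) and the focal adhesion kinase PTK2 (0.34, adjusted p = 6.2e-05) were called with the smallest p-values, with no overlap between shNC and sh1. FLNA was the most abundant of the list, at 123 to 152 FPKM in shNC and 176 to 239 FPKM in sh1. The 3 genes called lower were the kindlin FERMT1 (-0.21), PXN, paxillin (-0.18), and ACTN4, an actinin (-0.18), named here after their values were seen. Each lost its call in 16 of 23 alternatives, and none was called with upper quartile scaling, with library totals, or without any of shNC replicates 2, 4, 5 and 6 and sh1 replicates 2, 4, 5 and 6. Of the 10 adaptors called higher, BCAR1 lost its call in 11 alternatives, TLN1 in 6, FERMT2 in 3, and SRC and KANK1 in 1 each. TNS1, TNS2, TNS3, FLNA and PTK2 kept theirs in all 23. Of 11 regulators and tetraspanins (median -0.085), 1 was higher (CD82, 0.24) and 2 were lower, CD63 (-0.24), the most abundant, and CD9 (-1.04), a tetraspanin that associates with integrins, at 0.723 to 0.877 FPKM in shNC and 0.256 to 0.523 FPKM in sh1. Of 8 catenins and cadherin partners (median 0.085), 2 were higher and 6 not called. CTNNB1, beta-catenin, went from 46.7 to 51.4 FPKM in shNC to 59.3 to 61.4 FPKM in sh1 (log2 fold change 0.29, adjusted p = 4.7e-05) and AFDN, afadin, rose by 0.23. CTNNAL1, the most abundant of the list, was not called (0.093, adjusted p = 0.34).

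Ligands of the integrins were counted in the same way. Of 9 tested collagen genes (median 0.55), 6 were higher and none lower, with COL6A1 (1.11), COL4A1 (0.86), COL1A1 (1.49) and COL6A2 (0.87) as the smallest p-values, and COL6A3 was not called (0.14, adjusted p = 0.071). COL1A1 was low, at 0.387 to 0.811 FPKM in shNC and 0.879 to 1.96 FPKM in sh1. COL6A3 had the highest mean over all 12 libraries (48.9 FPKM) and in shNC (46.3 FPKM), while in sh1 its 51.4 FPKM stood below COL4A1 (59.0 FPKM) and COL5A1 (52.9 FPKM), both called higher. Of 11 laminin genes (median 0.17), 5 were higher and 1 lower. LAMC1, the common gamma1 chain, went from 69.8 to 80.3 FPKM in shNC to 91.3 to 98.0 FPKM in sh1 (0.34, adjusted p = 2.7e-05), and LAMB2 (0.65), LAMB1 (0.37) and LAMA1 (0.24) were higher. The call of LAMA1 was lost with shNC replicates 3 and 4 both left out (adjusted p = 0.058). LAMB3, a chain of laminin-332 and the most abundant laminin gene, stood at 219 to 368 FPKM in shNC and 220.0 to 272 FPKM in sh1 and was not called (-0.25, adjusted p = 0.051). Of 11 tested genes for RGD and related ligands (median 0.18), 4 were higher and 2 lower. EDIL3, an RGD protein that binds alphaV integrins, had a log2 fold change of 1.15, FBN1 (fibrillin-1) of 0.74, the most abundant, CCN1, of 0.46 and the tenascin TNC of -0.38. Among other adhesion genes, 2 of 4 tested cadherins (median 0.73) were higher, CDH11 (0.93), OB-cadherin of osteoblasts, with groups that did not overlap, and CDH8 (0.88). CDH8 was at 0.289 to 0.506 FPKM in shNC and 0.606 to 0.869 FPKM in sh1. Of 14 immunoglobulin-type genes (median 0.28), 7 were higher and 1 lower, with CADM3 (2.00), ICAM1 (1.11), CADM1 (0.42) and NECTIN2 (0.43) first by p-value. CADM3 was low, at 0.0719 to 0.195 FPKM in shNC and 0.445 to 0.664 FPKM in sh1. ICAM1 was at 0.254 to 0.599 FPKM in shNC and 0.815 to 1.16 FPKM in sh1. NECTIN2 had the highest mean over all 12 libraries (18.3 FPKM), but in shNC it was at 13.9 to 18.1 FPKM, below JAM3 at 18.4 to 19.7 FPKM. JAM3, a junction protein named after its values were seen, was the 1 called lower (-0.15, adjusted p = 0.014). The integrin subunit ITGAX was higher (0.53, adjusted p = 0.035), at under 1 FPKM. This last call was lost without any of 7 libraries, shNC replicates 1, 2 and 5 and sh1 replicates 1, 4, 5 and 6 (adjusted p up to 0.071).

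**Figure D5:**
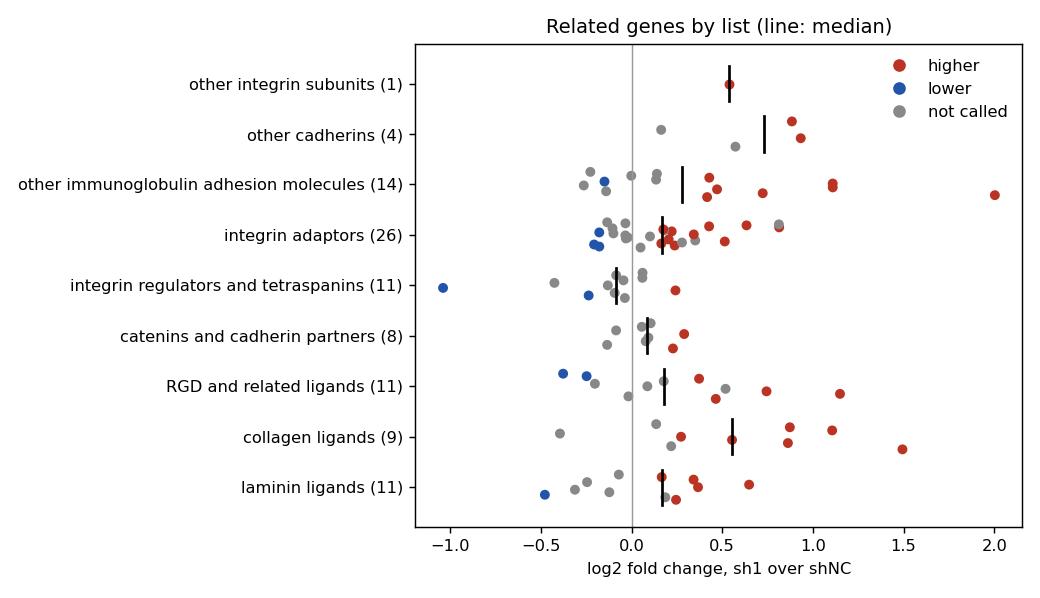
Log2 fold change, sh1 over shNC, of the tested genes in 9 lists of related genes, with the number tested in brackets, red for genes called higher, blue for lower, grey for not called and a black line for the median of the list. The medians run from -0.085 for regulators and tetraspanins to 0.73 for other cadherins.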

How the data were processed

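RNA of 12 SJSA-1 libraries was sequenced after oligo(dT) enrichment with a kit that does not mark strand. The authors mapped trimmed reads to GRCh38 with HISAT2 and deposited gene counts from featureCounts, and FPKM values that the authors calculated from the counts. The sources used here give no versions of these tools. In all 40131 rows with a count, count, FPKM and library total gave 1 gene length within 0.01 base pairs in every library. Another deposited table, with counts divided by size factors, was not used. Of 59248 rows, 572 have no Ensembl identifier (0.468% to 1.23% of the counts) and entered totals and tests like the others. Symbols, coordinates and exon overlaps are from GENCODE 44.

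Counts were tested over 16489 genes by the quasi-likelihood method of edgeR 4.0.16 (R 4.3.3), after filterByExpr and TMM scaling, with Benjamini-Hochberg adjustment over all of them. The standard error is the log2 fold change over the square root of F. The fit was tested on simulated data. Levels and overlaps of groups use FPKM. Alternatives were 22 planned settings (other scalings, filters, DESeq2 1.42.0, robust dispersion, limma 3.58.1 on log2(FPKM + 1) and log2(FPKM + 0.1), a replicate block, each of 12 libraries left out) and 1 added later. The 33 genes and the lists were chosen with earlier results of these data known. Text names RUNX2, all 33 genes, up to 4 called genes with the smallest p-value per list of related genes and the most abundant gene of every list by mean over 12 libraries. Other markers are named beside the results they touch. Overlapping genes, CDH24, the lower adaptors and the higher adaptors whose stability is given were named after their values were seen. Metabolite data of the study were not analysed here. The sum of 1 marker list is not reported here.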

Additional observations from a re-analysis of the deposited data

Results flagged for a closer look

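Values were screened for a library that stood far from the rest of its group relative to the group's range, a test that by chance marks about 1 in 20 groups. Of 92 values checked, 4 were marked. CDH2 made up 88.4% of the summed FPKM of the listed classical cadherins in sh1 replicate 1 and 91.0% to 91.8% in the other sh1 libraries, with CDH4 at its highest sh1 value there (5.96 FPKM). The other 3 belong to sh1 replicate 3. Its 11239638 counts compare with 14689309 to 16346022 in the remaining sh1 libraries, its 27392 genes with a count compare with 28612 to 28873, and its 1.23% of counts outside Ensembl identifiers compares with 0.468% to 0.531%.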

How the results depend on the processing

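Of the 18 called adhesion genes, 12 kept direction and call in every alternative that could test them (ITGA2, ITGA3, ITGA5, ITGA6, ITGA11, ITGAM, ITGAV, ITGB2, ITGB4, CDH2, CDH4 and CDH13), and ITGA4, ITGAE, ITGB1, ITGB8, MCAM and L1CAM lost the call in at least 1, with no change of direction. Over all alternatives, 10 to 14 adhesion genes were called higher and 3 to 5 lower. With limma, 3 were called lower on log2(FPKM + 1) and 3 on log2(FPKM + 0.1), and 4 related genes were called lower on both scales. Leaving out 1 library gave 3 to 5 lower adhesion genes (3 without shNC replicate 3 or sh1 replicate 2) and 4 to 9 lower related genes (4 or 5 without shNC replicate 2 or 5 or sh1 replicate 4 or 5). The cause was not tested. Among genes not called, leaving out 1 library moved ITGA10 between -0.024 and 0.11, ALCAM between -0.095 and 0.028 and ITGB3 between -0.24 and 0.066, and leaving out shNC replicates 3 and 4, chosen after the data had been seen, turned ITGA1 to 0.061 and ITGB3 to 0.31. Libraries with the same replicate number did not deviate together (correlations from -0.20 to 0.040, and 0 of 6 shNC libraries matched best with their own number). The values thus show no pairing by number, but whether libraries of the same number were handled together is not stated. With a replicate block, 10 adhesion genes were called higher and 4 lower, without ITGA4 (adjusted p = 0.079), ITGAE (0.079), ITGB1 (0.092) and MCAM (0.10). Of the related genes, 35 were then called higher and 4 lower. No alternative moved the median fold change of all genes by over 0.1. Genes under 1 FPKM are limited by depth.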
